A study of Aspergillus nidulans with 24 samples.

Results

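The genes described are 5 heat shock chaperone genes of the filamentous fungus Aspergillus nidulans, taken by gene ID from the 10631 genes of the expression table: AN5781 (hsp30), AN0858 (hsp104), AN8269 (hsp90), AN5129 (hsp70) and AN6089 (hsp60). They were chosen by their names and not by a threshold on a measured value, but with earlier results of these data known. All 5 were among the 9201 genes that passed the filter on low values. The RefSeq name table of assembly ASM1142v1 gives AN8269, AN5129 and AN6089 these names as symbols. It gives no symbol to AN5781 or AN0858, whose names are those the gene list came with.

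Heat shock chaperones hold, refold or take apart proteins that are not in their folded state, and are named for the sizes of the proteins first seen in heated cells. Small heat shock proteins such as hsp30 bind unfolding proteins without using ATP and keep them from aggregating. Hsp104 is a disaggregase, best known from budding yeast, which threads proteins out of aggregates and passes them to hsp70. Hsp70 binds short stretches of unfolded protein in cycles of ATP use, and hsp90 acts later on a narrower set of clients, among them kinases and transcription factors. Hsp60 is different in place and form: it is the chaperonin of the mitochondrial matrix, a ring-shaped chamber in which imported proteins fold. In yeast and other fungi the genes of these proteins are targets of the heat shock factor. Secreted enzymes fold in the endoplasmic reticulum (ER), which has chaperones of its own, such as BiP.

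The study compared strains that make a foreign enzyme with their parent by RNA sequencing of mycelium. The AbfA strain produces an alpha-arabinofuranosidase, the BglC strain a beta-glucosidase and the 1542 strain a thermophilic mannanase, and the reference is the parental strain A773, whose labelled genotype is pyrG89;wA3;pyroA4. Mycelium of every strain was grown on 1% glucose and then held for 2 h or 8 h in medium with 2% maltose and 250 mM HEPES, the medium the labels give for activating the promoter. The labels give 37 °C for every step. This gave 8 groups of 3 biological replicates, 24 libraries in all. Pyridoxine, uracil and uridine were supplied as needed, and the labels do not say which strain received which, which promoter that is, or whether a strain is 1 transformant.

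The libraries held from 7140121 reads (AbfA at 8 h, replicate 2) to 32309717 reads (AbfA at 2 h, replicate 1). The RNA of the introduced genes matched the strain labels, with 2689 to 6255 FPKM for AbfA, 5805 to 9177 FPKM for BglC and 695 to 1067 FPKM for 1542 in their own strains, and at most 1.98 FPKM in a library of any other strain. FPKM values divide the fragments of a gene by its length and by the total of the library. RNA of pyrG, whose mutant allele the parent carries, was also higher in the recombinant strains, at 154 to 1169 FPKM against 61.6 to 75.4 FPKM in A773. An effect of the introduced enzyme, of the pyrG gene and of the supplements therefore cannot be told apart in a comparison with A773. The hyphal genes actA, benA and tubA were abundant in every library, with a lowest value of 259 FPKM.

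Each of the 5 genes was among the abundant transcripts of the mycelium. Hsp30 ranked between 3 and 64 among all genes of a library by FPKM, hsp70 between 20 and 140, hsp90 between 27 and 187, hsp104 between 36 and 290, and hsp60 between 160 and 614. The lowest read count behind any of the values was 6228 (hsp60, AbfA at 8 h, replicate 2), which gives a counting error of 1.27%, so counting error was small beside the spread between replicates. Together the 5 genes took 2.80% to 3.79% of all reads in AbfA, 2.07% to 3.83% in BglC and 2.16% to 3.03% in 1542 at 2 h, against 0.995% to 1.63% in A773. At 8 h the shares were 1.98% to 2.39% in AbfA, 1.79% to 3% in BglC and 1.47% to 2.83% in 1542, against 0.969% to 1.40% in A773. At both times the lowest recombinant library was above the highest A773 library of the same time. These are bulk samples, in which fewer cells of a type and less RNA per cell cannot be told apart.

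**Figure D1:**
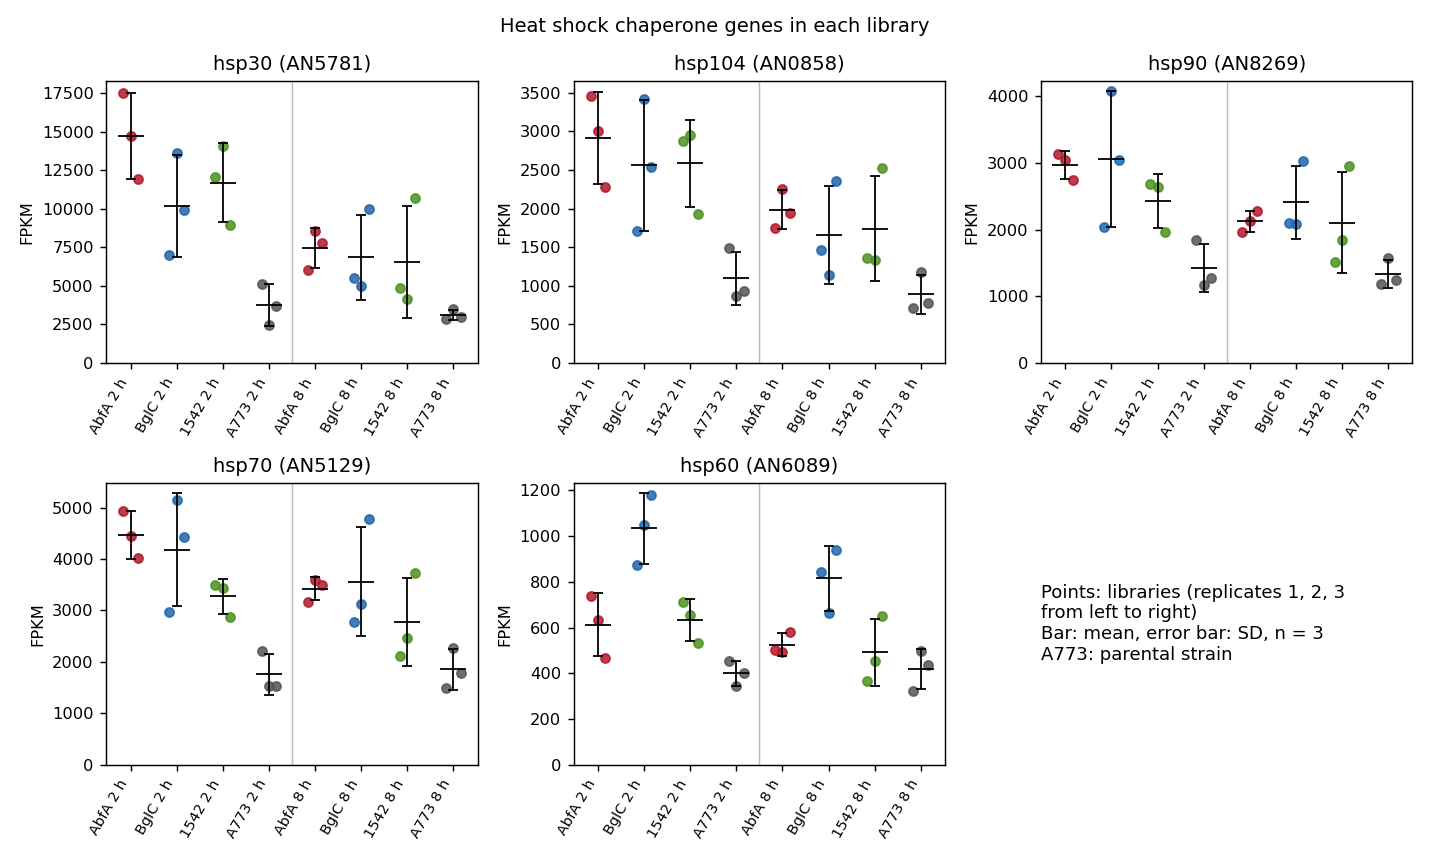
Expression of the 5 chaperone genes in every library, in FPKM on a linear axis, by strain and time of maltose. Points are libraries, horizontal bars are group means and error bars are SDs. In all panels the highest group mean belongs to a recombinant strain at 2 h, and for hsp60 the BglC strain lies above the other strains at both times.

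Hsp30, the small heat shock protein gene, had the highest level and the largest difference from the parent. At 2 h it stood at 17516, 14701 and 11898 FPKM in AbfA, 7028, 13615 and 9916 FPKM in BglC, and 12036, 14082 and 8954 FPKM in 1542, against 5151, 2439 and 3696 FPKM in A773. Every recombinant library lay above every A773 library. The means were 14705 ± 2809 FPKM in AbfA, 10186 ± 3301 FPKM in BglC and 11691 ± 2582 FPKM in 1542, against 3762 ± 1357 FPKM in A773 (SD, n = 3 each). On the log2(FPKM + 1) scale, the scale of every log2 difference given, hsp30 was higher than in A773 by 2.01 ± 0.34 in AbfA (SE; limma adjusted p = 0.00035), by 1.45 ± 0.34 in BglC (adjusted p = 0.0062) and by 1.68 ± 0.34 in 1542 (adjusted p = 0.001). The SE of a gene rests on 1 estimate of the spread over all 24 libraries, p-values are adjusted by Benjamini and Hochberg over the 9201 genes, and a gene is called changed when the adjusted p is under 0.05. These 3 calls held without any single library.

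At 8 h hsp30 stood at 6027, 8545 and 7778 FPKM in AbfA, 5512, 5019 and 9995 FPKM in BglC, and 4839, 4136 and 10721 FPKM in 1542, against 2846, 3470 and 2974 FPKM in A773. No recombinant library overlapped with A773, but BglC and 1542 each had 1 library, replicate 3, that lay within the range of the 2 h libraries of its strain. Hsp30 was higher by 1.26 ± 0.34 in AbfA (adjusted p = 0.012) and by 1.08 ± 0.34 in BglC (adjusted p = 0.025). In 1542 the difference was 0.96 ± 0.34 and missed the threshold (adjusted p = 0.059). The AbfA call held without any single library. The BglC call ended without replicate 3 of BglC (adjusted p = 0.15) and without replicate 1 or 3 of A773 (adjusted p = 0.076 and 0.07). For 1542 the difference passed without its replicate 2 (adjusted p = 0.032), while without its replicate 3 no call was made.

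Hsp104, the disaggregase gene, moved in the same direction at lower levels. At 2 h it had 3460, 2999 and 2276 FPKM in AbfA, 1713, 3419 and 2545 FPKM in BglC, and 2874, 2949 and 1931 FPKM in 1542, against 1495, 870 and 929 FPKM in A773, with no overlap between a recombinant strain and the parent. It was higher by 1.43 ± 0.31 in AbfA (adjusted p = 0.0023), by 1.21 ± 0.31 in BglC (adjusted p = 0.011) and by 1.25 ± 0.31 in 1542 (adjusted p = 0.0045). The calls in AbfA and 1542 held without any single library. The call in BglC ended without replicate 2 of BglC (adjusted p = 0.063), without replicate 2 of A773 (adjusted p = 0.054), and when the fit held only the 2 groups compared (adjusted p = 0.058).

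At 8 h hsp104 had 1752, 2255 and 1947 FPKM in AbfA, 1467, 1143 and 2362 FPKM in BglC, and 1355, 1335 and 2525 FPKM in 1542, against 713, 1180 and 771 FPKM in A773. The lowest BglC library lay below the highest A773 library, and the other strains did not overlap with A773. Hsp104 was higher by 1.19 ± 0.31 in AbfA (adjusted p = 0.0097), by 0.87 ± 0.31 in BglC (adjusted p = 0.045) and by 0.94 ± 0.31 in 1542 (adjusted p = 0.044). The AbfA call held without any single library. The BglC call ended without replicate 1 (adjusted p = 0.066) or 3 (0.24) of BglC and without replicate 1 (0.15) or 3 (0.13) of A773. The 1542 call ended without replicate 1 (adjusted p = 0.053) or 3 (0.24) of 1542 and without replicate 1 (0.16) or 3 (0.14) of A773. Both also ended with no filter on low values (adjusted p = 0.055 for BglC and 0.054 for 1542), with only the groups compared in the fit (0.072 and 0.061), and with the replicate number as a block (0.059 for both).

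Hsp70, the general ATP-driven chaperone of the cytosol, had 4932, 4448 and 4017 FPKM in AbfA, 2975, 5138 and 4434 FPKM in BglC, and 3494, 3441 and 2881 FPKM in 1542 at 2 h, against 2215, 1525 and 1535 FPKM in A773. No recombinant library overlapped with A773. The differences were 1.36 ± 0.24 in AbfA (adjusted p = 0.00043), 1.24 ± 0.24 in BglC (adjusted p = 0.0015) and 0.91 ± 0.24 in 1542 (adjusted p = 0.0059), and all 3 calls held without any single library.

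At 8 h hsp70 had 3170, 3596 and 3501 FPKM in AbfA, 2773, 3129 and 4767 FPKM in BglC, and 2119, 2471 and 3737 FPKM in 1542, against 1495, 2275 and 1786 FPKM in A773. AbfA and BglC lay wholly above A773, and 1542 overlapped with it. Hsp70 was higher by 0.90 ± 0.24 in AbfA (adjusted p = 0.0095) and by 0.92 ± 0.24 in BglC (adjusted p = 0.0077), and the difference of 0.56 ± 0.24 in 1542 missed the threshold (adjusted p = 0.11). The AbfA call ended without replicate 1 of A773 (adjusted p = 0.052), and the BglC call ended without replicate 3 of BglC (adjusted p = 0.061).

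Hsp90, which works downstream of hsp70, had 3140, 3045 and 2736 FPKM in AbfA, 2043, 4076 and 3047 FPKM in BglC, and 2686, 2636 and 1963 FPKM in 1542 at 2 h, against 1841, 1172 and 1280 FPKM in A773. The groups did not overlap with A773. The differences were 1.08 ± 0.25 in AbfA (adjusted p = 0.0033), 1.07 ± 0.25 in BglC (adjusted p = 0.006) and 0.78 ± 0.25 in 1542 (adjusted p = 0.02). The AbfA and BglC calls held without any single library, and the BglC call ended when only the 2 groups compared entered the fit (adjusted p = 0.065). The 1542 call ended without replicate 1 (adjusted p = 0.069) or 2 (0.063) of 1542 and without replicate 2 (0.093) or 3 (0.07) of A773.

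At 8 h hsp90 had 1968, 2128 and 2272 FPKM in AbfA, 2098, 2088 and 3033 FPKM in BglC, and 1518, 1840 and 2960 FPKM in 1542, against 1179, 1573 and 1246 FPKM in A773. AbfA and BglC did not overlap with A773, while the lowest 1542 library did. Hsp90 was higher by 0.68 ± 0.25 in AbfA (adjusted p = 0.048) and by 0.84 ± 0.25 in BglC (adjusted p = 0.017), and the difference of 0.61 ± 0.25 in 1542 missed the threshold (adjusted p = 0.097). The AbfA call ended without replicate 1 (adjusted p = 0.073), 2 (0.1) or 3 (0.13) of AbfA, without replicate 1 (0.15) or 3 (0.14) of A773, with no filter on low values (0.059), with scaling between libraries (0.052) and with the replicate block (0.058). The BglC call ended without replicate 3 of BglC (adjusted p = 0.1) and without replicate 1 (0.067) or 3 (0.06) of A773.

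Hsp60, the mitochondrial chaperonin gene, had the lowest level of the 5, and its largest difference from the parent was in the BglC strain. At 2 h it had 738, 634 and 465 FPKM in AbfA, 872, 1051 and 1182 FPKM in BglC, and 712, 656 and 532 FPKM in 1542, against 454, 344 and 401 FPKM in A773. Replicate 3 of AbfA lay just above the highest A773 library, and the other recombinant libraries lay further above it. Hsp60 was higher by 0.60 ± 0.21 in AbfA (adjusted p = 0.038), by 1.37 ± 0.21 in BglC (adjusted p = 0.0003) and by 0.66 ± 0.21 in 1542 (adjusted p = 0.019). The BglC call held without any single library. The AbfA call ended without replicate 1 (adjusted p = 0.13) or 2 (0.11) of AbfA, without replicate 2 (0.15) or 3 (0.084) of A773, with scaling between libraries (0.074) and with only the 2 groups compared in the fit (0.083). The 1542 call ended without replicate 1 (adjusted p = 0.076) or 2 (0.053) of 1542 and without replicate 2 of A773 (0.089).

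At 8 h hsp60 had 502, 494 and 582 FPKM in AbfA, 843, 662 and 940 FPKM in BglC, and 368, 455 and 651 FPKM in 1542, against 324, 497 and 438 FPKM in A773. Only BglC lay wholly above the parent. Its difference was 0.96 ± 0.21 (adjusted p = 0.0027) and held without any single library. The differences in AbfA (0.34 ± 0.21, adjusted p = 0.24) and in 1542 (0.21 ± 0.21, adjusted p = 0.53) missed the threshold.

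Counted over the 5 genes, 5 were called higher than in A773 at 2 h in AbfA, 5 in BglC and 5 in 1542, where 18.5%, 7.5% and 22.1% of all genes tested were called higher. At 8 h 4 were called higher in AbfA, 5 in BglC and 1 in 1542, where 11.3%, 7.09% and 5.42% of all genes tested were called higher. None was called lower in any of the 6 comparisons. The 5 genes were chosen with earlier results of these data known, so these counts are a description and not an independent test. The median log2 difference of the 5 genes at 2 h was 1.36 in AbfA, 1.24 in BglC and 0.91 in 1542, beside 0.04, -0.10 and 0.05 over all genes tested. At 8 h it was 0.90 in AbfA, 0.92 in BglC and 0.61 in 1542, beside -0.06, -0.14 and -0.09 over all genes. The 6 comparisons share the A773 libraries of a time, so a low or high A773 library moves all strains together. With scaling between libraries the shares of all genes called higher were 18.1% in AbfA, 10.2% in BglC and 20.7% in 1542 at 2 h, and 13.3%, 11.3% and 8.17% at 8 h. In BglC at 8 h scaling between libraries moved the median over all genes to -0.003, and the differences of the 5 genes there became 1.00 to 1.24 instead of 0.84 to 1.08. Without replicate 3 of BglC at 8 h, 1 of the 5 genes, hsp60, was still called.

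**Figure D2:**
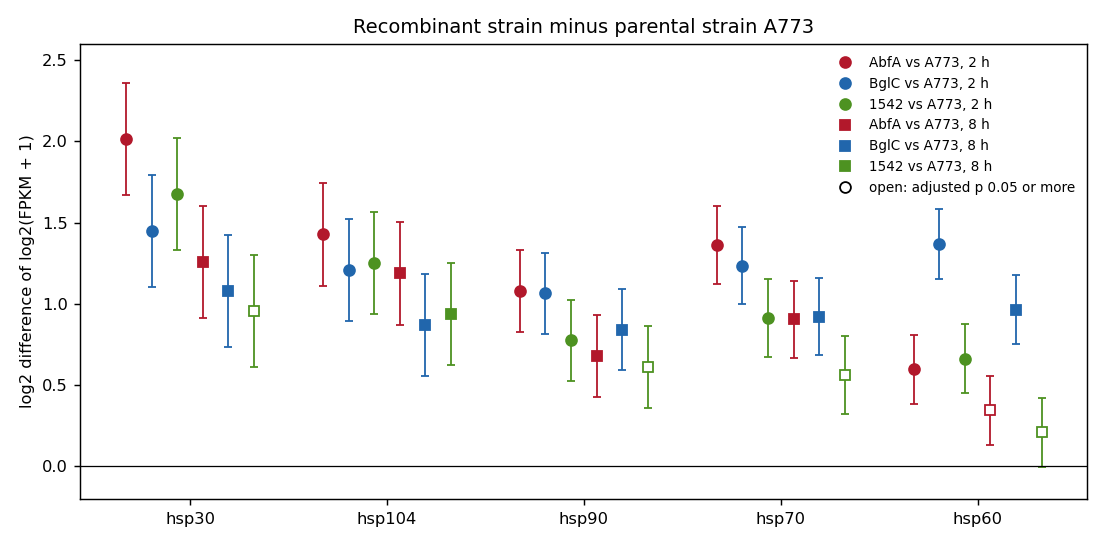
Log2 difference of log2(FPKM + 1) between each recombinant strain and A773 for the 5 genes at 2 h and 8 h, with bars of 1 SE from limma. Filled symbols are differences with an adjusted p under 0.05; all 30 differences are above 0, the largest is hsp30 in AbfA at 2 h (2.01), and BglC stands apart in hsp60.

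The recombinant strains were also tested against each other, which does not involve the parent. Of the 5 genes only hsp60 was called in these comparisons. It was higher in BglC than in AbfA by 0.77 ± 0.21 at 2 h (adjusted p = 0.0066) and by 0.62 ± 0.21 at 8 h (adjusted p = 0.048), comparisons in which 14.4% and 6.23% of all genes were called higher. It was lower in 1542 than in BglC by -0.71 ± 0.21 at 2 h (adjusted p = 0.011) and by -0.75 ± 0.21 at 8 h (adjusted p = 0.021), where 15.4% and 6.92% of all genes were called lower. With scaling between libraries these 4 shares were 20.9%, 9.71%, 23.4% and 8.69%. A count of 1 of the 5 genes is near the shares at 2 h. The BglC libraries did not overlap with those of AbfA or 1542 in any of the 4 comparisons. Between 1542 and AbfA limma called 0 of the 5 genes at either time, with 2.95% of all genes called in either direction at 2 h and 6.81% at 8 h, 0 of the 5 had an unadjusted p under 0.05, and limma-voom on recovered reads also called 0. Of all genes 17.4% at 2 h and 20.8% at 8 h had an unadjusted p under 0.05 between these 2 strains. For hsp60 the difference between 1542 and AbfA was 0.06 ± 0.21 at 2 h and -0.13 ± 0.21 at 8 h.

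The calls of these hsp60 differences depended on single libraries, while the differences kept their sign. Leaving out 1 library gave 0.59 to 0.92 at 2 h and 0.51 to 0.76 at 8 h for BglC minus AbfA, and -0.83 to -0.59 at 2 h and -0.98 to -0.57 at 8 h for 1542 minus BglC. The call of BglC against AbfA at 2 h ended without replicate 3 of AbfA (adjusted p = 0.051), and that of 1542 against BglC at 2 h ended without replicate 3 of 1542 (0.057) or replicate 3 of BglC (0.053). At 8 h BglC against AbfA ended without replicate 1 (adjusted p = 0.11) or 3 (0.17) of BglC and without replicate 1 (0.12), 2 (0.13) or 3 (0.07) of AbfA. It also ended with no filter (adjusted p = 0.055), without the variance trend (0.051), with voom (0.052) and with the replicate block (0.06). At 8 h 1542 against BglC ended without replicate 1 (adjusted p = 0.12) or 2 (0.067) of 1542, without replicate 1 (0.059) or 3 (0.097) of BglC, and with only the 2 groups compared in the fit (0.064). In the other 4 genes the differences between recombinant strains ran from -0.56 (hsp30, BglC minus AbfA at 2 h) to 0.23 (hsp30, 1542 minus BglC at 2 h), and each was under 2 of its SEs.

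The ratio of hsp60 to hsp70 within a library does not depend on the scaling between libraries. At 2 h this ratio of FPKM values was 0.116 to 0.150 in AbfA, 0.204 to 0.293 in BglC and 0.185 to 0.204 in 1542, against 0.205 to 0.261 in A773. At 8 h it was 0.137 to 0.166 in AbfA, 0.197 to 0.304 in BglC and 0.174 to 0.184 in 1542, against 0.217 to 0.245 in A773. AbfA and 1542 lay below every A773 library at both times, and BglC overlapped with A773. In AbfA and 1542 hsp70 differed from the parent by more than hsp60 did. The ratio of hsp30 to hsp70 was 2.96 to 3.55 in AbfA, 2.24 to 2.65 in BglC and 3.11 to 4.09 in 1542 at 2 h, against 1.60 to 2.41 in A773, so that AbfA and 1542 lay above A773 and BglC overlapped with it. At 8 h this ratio was 1.90 to 2.38 in AbfA, 1.60 to 2.10 in BglC and 1.67 to 2.87 in 1542, against 1.53 to 1.90 in A773, and all 3 ranges overlapped with that of A773. The ratios were described without a test.

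**Figure D3:**
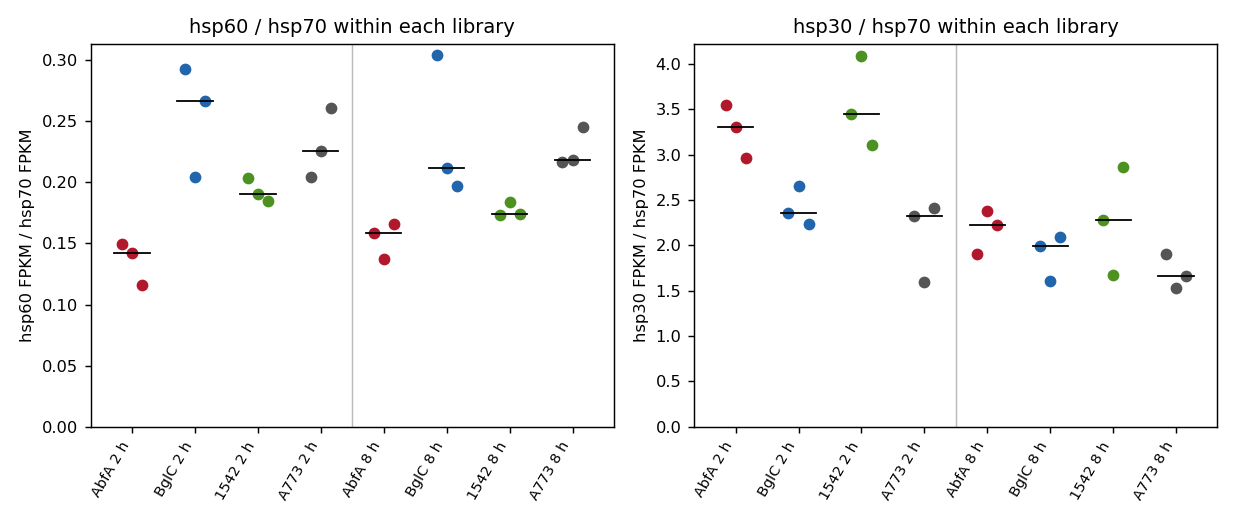
Ratio of hsp60 to hsp70 (left) and of hsp30 to hsp70 (right), both in FPKM, in every library; points are libraries and bars are group medians. AbfA has the lowest hsp60 to hsp70 ratios at both times (0.116 to 0.166), and the highest hsp30 to hsp70 ratios are those of AbfA and 1542 at 2 h (2.96 to 4.09).

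The 8 h minus 2 h estimates of the 5 genes were all below 0 in the 3 recombinant strains, and limma called none of them. Hsp30 averaged 7450 ± 1290 FPKM at 8 h against 14705 ± 2809 FPKM at 2 h in AbfA, 6842 ± 2742 FPKM at 8 h against 10186 ± 3301 FPKM at 2 h in BglC, and 6565 ± 3616 FPKM at 8 h against 11691 ± 2582 FPKM at 2 h in 1542 (SD, n = 3 each). The 8 h minus 2 h differences of hsp30 were -0.98 ± 0.34 in AbfA (adjusted p = 0.052), -0.59 ± 0.34 in BglC (adjusted p = 0.2) and -0.94 ± 0.34 in 1542 (adjusted p = 0.064), with -0.22 ± 0.34 in A773 (adjusted p = 0.62). In AbfA the libraries of the 2 times did not overlap for hsp30, hsp104, hsp90 or hsp70. Among these genes only hsp30 had an unadjusted limma p under 0.05. The share of all genes without overlap was not counted, so this is no sign of a change particular to these genes. Of the 5 genes 0 were called in each strain, while 19.1% of all genes tested were called in either direction in AbfA, 32.3% in BglC, 17.8% in 1542 and 48.3% in A773. At an unadjusted p under 0.05 there was 1 gene (hsp30) in AbfA, 0 in BglC, 1 (hsp30) in 1542 and 0 in A773, beside 33.8%, 42.5%, 32.1% and 55.1% of all genes in these strains, and voom called 0 in each.

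The hsp30 difference in AbfA passed with a filter at 5 FPKM (adjusted p = 0.048) and with only the 2 groups in the fit (adjusted p = 0.036). In 1542 it was -1.36 without replicate 3 at 8 h (adjusted p = 0.0093). Hsp104 in BglC differed by -0.64 ± 0.31 (adjusted p = 0.13), and passed without replicate 1 at 2 h (-0.90, adjusted p = 0.047) or without replicate 3 at 8 h (-0.93, adjusted p = 0.044). In A773 the 8 h minus 2 h differences of the 5 genes lay between -0.30 (hsp104) and 0.08 (hsp70).

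Whether the difference from the parent itself changed between the times was tested directly. All 15 estimates, 5 genes in 3 strains, were negative, so each estimated difference from A773 was smaller at 8 h than at 2 h. However, limma called 0 in each strain, 0 had an unadjusted p under 0.05, and voom called 0. The medians over all genes tested were also negative, at -0.10 for AbfA, -0.04 for BglC and -0.15 for 1542. The 15 estimates share the A773 libraries, and the 5 genes varied together between replicates, so their common sign is not 15 separate observations. The share of all genes called in either direction was 16.7% for AbfA, 10.1% for BglC and 20.4% for 1542. At an unadjusted p under 0.05 the shares were 31.1%, 24.3% and 34.1%. For hsp30 the change was -0.76 ± 0.49 in AbfA (adjusted p = 0.31), -0.37 ± 0.49 in BglC (adjusted p = 0.7) and -0.72 ± 0.49 in 1542 (adjusted p = 0.31). The 4 calls that 1542 had at 2 h and not at 8 h are therefore not shown to differ between the times.

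Ordered by their mean, the groups fell into the same broad order for hsp30 and hsp104: AbfA, 1542 and BglC at 2 h, then the recombinant strains at 8 h, then A773 at 2 h and at 8 h. The hsp104 means were 2912 ± 597 FPKM in AbfA, 2585 ± 567 FPKM in 1542 and 2559 ± 853 FPKM in BglC at 2 h, then 1985 ± 253, 1738 ± 681 and 1657 ± 632 FPKM in AbfA, 1542 and BglC at 8 h, and 1098 ± 345 and 888 ± 255 FPKM in A773 at 2 h and 8 h (SD, n = 3 each). For hsp90 the order began with BglC at 2 h (3055 ± 1017 FPKM), AbfA at 2 h (2974 ± 211 FPKM) and 1542 at 2 h (2428 ± 404 FPKM), and ended with A773 at 2 h (1431 ± 359 FPKM) and 8 h (1333 ± 211 FPKM). Hsp70 ran from 4465 ± 458 FPKM in AbfA at 2 h to 1852 ± 394 and 1758 ± 396 FPKM in A773 at 8 h and 2 h. Hsp60 placed BglC at 2 h (1035 ± 156 FPKM) and at 8 h (815 ± 141 FPKM) first, above 1542 (633 ± 92.1 FPKM) and AbfA (612 ± 138 FPKM) at 2 h, and A773 last at 8 h (419 ± 87.9 FPKM) and 2 h (399 ± 54.9 FPKM). Groups next to each other in these orders overlapped in their libraries, except AbfA and 1542 at 2 h for hsp90.

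The 5 genes also varied together between replicates of the same group. The correlation of their deviations from the group mean over the 24 libraries, on the log2(FPKM + 1) scale, ran from 0.754 (hsp30 with hsp60) to 0.958 (hsp90 with hsp70). The 3 libraries of BglC at 2 h are an example: replicate 2 was highest and replicate 1 lowest for hsp30, hsp104, hsp90 and hsp70, while hsp60 was highest in replicate 3. In 1542 at 8 h replicate 3 was highest for all 5 genes. These correlations describe the libraries, and values of the same library share its depth and its scaling.

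Over all 24 libraries hsp30 was most like hsp104 (Pearson r = 0.973), AN3555 (0.973) and AN7892 (0.964) among the 9201 genes, and hsp104 was most like hsp30, AN3555 (0.968) and hsp88 (0.957). Hsp90 and hsp70 were the genes most like each other (r = 0.970), followed for hsp90 by hsp78 (0.955) and hsp104 (0.941) and for hsp70 by hsp78 (0.947) and hsp88 (0.936). Hsp60 was set apart here. The genes most like it were AN10778 (0.896), AN2432 (0.890) and AN6010 (0.871), and its r with the other 4 chaperone genes ran from 0.664 (hsp30) to 0.808 (hsp90). AN3555, AN7892, AN10778, AN2432 and AN6010 have no symbol in the name table and are given by ID only. The 24 libraries fall into 8 groups, so these values hold differences between groups as well as between replicates. For deviations from the group mean, the r of hsp60 with the other 4 chaperone genes ran from 0.754 (hsp30) to 0.816 (hsp104). Among those 4 genes it ran from 0.882 (hsp30 with hsp70) to 0.958 (hsp90 with hsp70). Within groups hsp60 was thus less set apart.

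Among the other chaperone genes, 6 had a symbol on a list of heat shock proteins and helpers: the cytosolic genes hsp88, sti1, wos2 and fes1 and the mitochondrial genes hsp78 and tim44. In yeasts, Sti1 links Hsp70 to Hsp90, Wos2 is a p23-type partner of Hsp90, Fes1 exchanges nucleotide on Hsp70, Hsp78 is the disaggregase of the mitochondrial matrix and Tim44 holds the matrix Hsp70 to the import channel. Of the 6, at 2 h 5 were called higher and 0 lower in AbfA, 6 higher and 0 lower in BglC, and 5 higher and 1 lower in 1542, against A773. At 8 h 2 were called higher and 1 lower in AbfA, 3 higher and 0 lower in BglC, and 0 higher and 0 lower in 1542. Of all genes tested, 18.5% in AbfA, 7.5% in BglC and 22.1% in 1542 were called higher at 2 h and 13.5%, 15.7% and 16.1% lower, while at 8 h 11.3%, 7.09% and 5.42% were called higher and 16.6%, 20.9% and 12.7% lower. The median log2 difference of the 6 at 2 h was 1.10 in AbfA, 0.82 in BglC and 1.04 in 1542, and at 8 h 0.46 in AbfA, 0.46 in BglC and 0.28 in 1542, beside the medians over all genes given above. In the limma test of change between the times only wos2 was called. It was lower in AbfA (-1.009 ± 0.287, adjusted p = 0.02) and in 1542 (-1.085 ± 0.287, adjusted p = 0.012), where 10.9% and 14.8% of all genes were called lower. The AbfA call ended without replicate 2 or 3 of A773 at 2 h (adjusted p up to 0.065), and the 1542 call held without any single library.

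All 4 cytosolic helpers were called higher than in A773 at 2 h in each recombinant strain, where 18.5% of all genes in AbfA, 7.5% in BglC and 22.1% in 1542 were. Wos2 averaged 1940 ± 74.2 FPKM in AbfA, 1286 ± 265 FPKM in BglC and 1757 ± 105 FPKM in 1542, against 825 ± 273 FPKM in A773 (SD, n = 3 each), with differences of 1.28 ± 0.20 (adjusted p = 0.0002), 0.67 ± 0.20 (adjusted p = 0.024) and 1.14 ± 0.20 (adjusted p = 0.00035). Fes1 was higher by 1.25 ± 0.32 in AbfA, 0.97 ± 0.32 in BglC and 1.40 ± 0.32 in 1542. Sti1 was higher by 0.91 ± 0.24, 0.98 ± 0.24 and 0.95 ± 0.24 in AbfA, BglC and 1542, and hsp88 by 0.96 ± 0.22, 0.67 ± 0.22 and 0.69 ± 0.22. For hsp88, wos2 and fes1 the BglC and A773 libraries overlapped, and their BglC calls ended without replicate 2 or 3 of either strain, with adjusted p of up to 0.16, 0.12 and 0.17, and with only the 2 groups compared in the fit (0.097, 0.14 and 0.11). The call of hsp88 in 1542 ended without replicate 2 of 1542 or without replicate 2 or 3 of A773 (adjusted p up to 0.068), and that of fes1 in AbfA without replicate 2 of A773 (0.051). At 8 h the 2 cytosolic calls were hsp88 in AbfA (0.67 ± 0.22, adjusted p = 0.028) and sti1 in BglC (0.65 ± 0.24, adjusted p = 0.044). The first ended without any of the 3 AbfA libraries or replicate 1 or 3 of A773 (adjusted p up to 0.11), and the second without replicate 2 or 3 of BglC or replicate 1 or 3 of A773 (adjusted p up to 0.24), with no filter, with only the 2 groups in the fit and with the replicate block (up to 0.11).

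Of the mitochondrial genes, hsp78 was called higher in all 3 strains at 2 h, and tim44 was called higher than in A773 in BglC at both times. Hsp78 averaged 778 ± 185 FPKM in AbfA, 901 ± 311 FPKM in BglC and 769 ± 160 FPKM in 1542 at 2 h, against 293 ± 129 FPKM in A773, and was higher by 1.46 ± 0.41 (adjusted p = 0.011), 1.63 ± 0.41 (adjusted p = 0.0082) and 1.45 ± 0.41 (adjusted p = 0.009). At 8 h it was higher by 1.25 ± 0.41 in AbfA (adjusted p = 0.027) and 1.34 ± 0.41 in BglC (adjusted p = 0.02), with 0.82 ± 0.41 in 1542 (adjusted p = 0.17). The AbfA call at 2 h ended without replicate 2 or 3 of A773 (adjusted p up to 0.056). At 8 h the AbfA call ended without replicate 2 or 3 of AbfA or 1 or 3 of A773 (adjusted p up to 0.11), and the BglC call without replicate 3 of BglC or 1 or 3 of A773 (adjusted p up to 0.13).

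Tim44 had 77.9 to 87.2 FPKM in BglC at 2 h, against 46.8 to 58.9 FPKM in A773, and 86.5 to 96.1 FPKM in BglC at 8 h, against 64.6 to 71.0 FPKM in A773. It was higher by 0.62 ± 0.10 at 2 h (adjusted p = 0.00047) and by 0.42 ± 0.10 at 8 h (adjusted p = 0.0053), and both calls held without any single library. It was lower in 1542 at 2 h (-0.29 ± 0.10, adjusted p = 0.032) and in AbfA at 8 h (-0.29 ± 0.10, adjusted p = 0.041). These lower calls ended without replicate 1 or 3 of 1542 or 2 or 3 of A773 (adjusted p up to 0.15), and without replicate 2 or 3 of AbfA or 1 or 3 of A773 (adjusted p up to 0.15). With only the groups compared in the fit the call in 1542 ended as well (adjusted p = 0.089), and the call in AbfA ended with that fit, with scaling between libraries and with the replicate block (up to 0.12).

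The genes grpE, named for a bacterial protein that exchanges nucleotide on Hsp70, and pam18, whose yeast namesake is a co-chaperone of mitochondrial import, were added to the mitochondrial genes after the symbols in the table had been seen. GrpE was higher in BglC by 0.48 ± 0.15 at 2 h (adjusted p = 0.028) and by 0.46 ± 0.15 at 8 h (adjusted p = 0.03), and lower in 1542 at 2 h (-0.50 ± 0.15, adjusted p = 0.015). Its 3 calls also ended without single libraries, with adjusted p of up to 0.14 for BglC at 2 h (replicate 1 or 3 of BglC, 1 or 2 of A773), 0.12 for BglC at 8 h (replicate 1 or 2 of either strain) and 0.098 for 1542 (replicate 3 of 1542, 2 or 3 of A773). With only the 2 groups in the fit the BglC calls of grpE ended too (adjusted p = 0.14 at 2 h and 0.068 at 8 h). Tested between recombinant strains, tim44 was higher in BglC than in AbfA by 0.81 ± 0.10 at 2 h (adjusted p = 7.5e-06) and 0.71 ± 0.10 at 8 h (adjusted p = 0.00016), and grpE by 0.75 ± 0.15 (adjusted p = 0.00062) and 0.70 ± 0.15 (adjusted p = 0.0036). In 1542 tim44 was lower than in BglC by -0.91 ± 0.10 at 2 h (adjusted p = 1.7e-06) and -0.63 ± 0.10 at 8 h (adjusted p = 0.00038), and grpE by -0.98 ± 0.15 (adjusted p = 4.2e-05) and -0.77 ± 0.15 (adjusted p = 0.0019). No BglC library overlapped with AbfA or 1542 for either gene, and these 8 calls held without any single library and in the other settings tried, unlike those of hsp60. Of all genes 14.4% at 2 h and 6.23% at 8 h were called higher in BglC than in AbfA. In 1542 against BglC 15.4% at 2 h and 6.92% at 8 h were called lower. The share of all genes without overlap was not counted. For hsp78 no difference between recombinant strains was called: BglC minus AbfA was 0.17 ± 0.41 at 2 h (adjusted p = 0.76) and 0.08 ± 0.41 at 8 h (adjusted p = 0.92), and 1542 minus BglC was -0.18 ± 0.41 (adjusted p = 0.74) and -0.51 ± 0.41 (adjusted p = 0.43). For pam18 BglC minus AbfA was 0.28 ± 0.13 at 2 h (adjusted p = 0.089) and 0.17 ± 0.13 at 8 h (adjusted p = 0.39), and 1542 minus BglC was -0.36 ± 0.13 at 2 h (adjusted p = 0.03) and -0.21 ± 0.13 at 8 h (adjusted p = 0.29). The 2 h call ended without replicate 2 of 1542 or replicate 1 or 3 of BglC (adjusted p up to 0.11) and in 1 other setting (0.075). Pam18 was not called in any of the 6 comparisons with A773, with differences from -0.33 to 0.16.

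The ER helpers bipA (ER hsp70), pdiA (protein disulphide isomerase) and clxA (calnexin) were likewise added later. At 2 h bipA was lower in 1542 (-0.85 ± 0.16, adjusted p = 0.00053) and pdiA was lower in AbfA (-0.53 ± 0.11, adjusted p = 0.0015) and in 1542 (-0.69 ± 0.11, adjusted p = 0.00014), calls that held without any single library. None of the ER genes was called higher at 2 h. At that time 18.5% of all genes tested in AbfA, 7.5% in BglC and 22.1% in 1542 were called higher. The shares called lower were 13.5%, 15.7% and 16.1%. For 3 genes, a count of 0 called higher is near these shares. At 8 h bipA (0.51 ± 0.16, adjusted p = 0.024) and clxA (0.50 ± 0.16, adjusted p = 0.022) were higher in BglC and clxA was higher in 1542 (0.50 ± 0.16, adjusted p = 0.032). Of all genes 7.09% in BglC and 5.42% in 1542 were called higher at 8 h. The bipA call ended without replicate 1 or 2 of BglC or A773 (adjusted p up to 0.071), the clxA call in BglC without replicate 1 of BglC or A773 (up to 0.11), and the clxA call in 1542 without replicate 2 or 3 of 1542 or 1 or 3 of A773 (up to 0.15). These differences stand beside a parent in which all 3 ER genes were lower at 8 h than at 2 h, bipA by -1.25 ± 0.16 (adjusted p = 3.7e-06), pdiA by -0.69 ± 0.11 (adjusted p = 4e-05) and clxA by -0.72 ± 0.16 (adjusted p = 0.0009), calls that held without any single library. In A773 16.8% of all genes were called lower at 8 h. In BglC bipA itself was lower at 8 h than at 2 h (-0.53 ± 0.16, adjusted p = 0.016), a call that ended without replicate 2 at 2 h or replicate 3 at 8 h (adjusted p up to 0.095) and with only the 2 groups in the fit (0.057), and clxA differed by 0.02 ± 0.16 (adjusted p = 0.93). The limma test of change between the times called 2 of the 3 ER genes higher in AbfA, 2 in BglC and 3 in 1542, beside 5.81%, 3.92% and 5.64% of all genes. The calls in 1542 held without any single library, and those in AbfA and BglC did not (adjusted p up to 0.089 and 0.11).

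**Figure D4:**
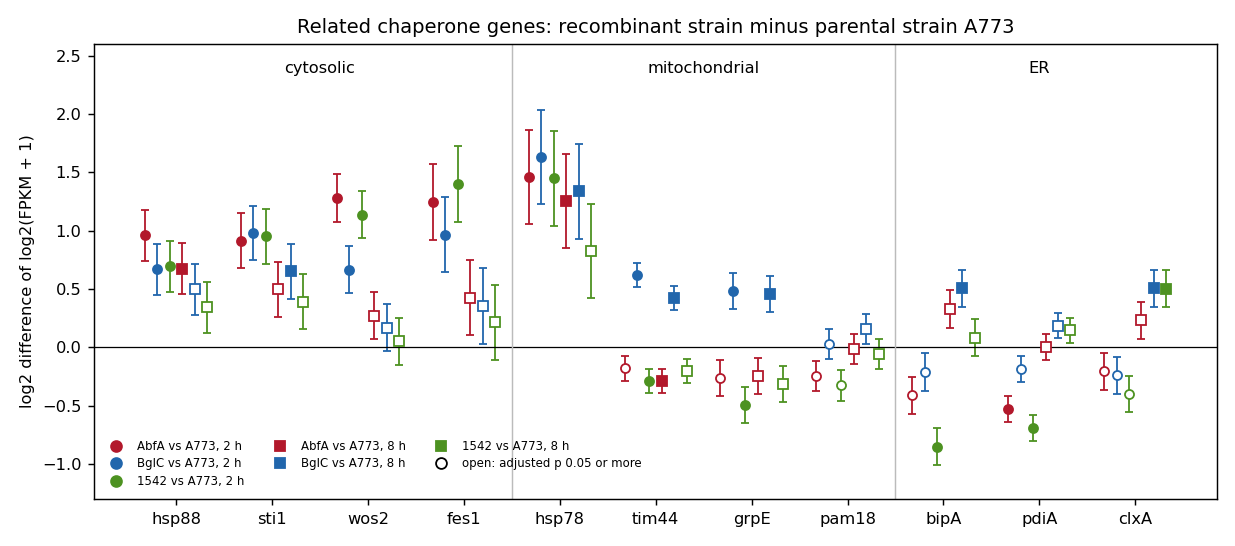
Log2 difference of log2(FPKM + 1) from A773 for the related cytosolic, mitochondrial and ER chaperone genes in each strain and time, with bars of 1 SE from limma; circles are 2 h, squares are 8 h and filled symbols have an adjusted p under 0.05. The cytosolic genes and hsp78 lie above 0 in all 6 comparisons, tim44 and grpE lie above 0 in BglC and below 0 in the other strains, and bipA and pdiA reach -0.85 and -0.69 in 1542 at 2 h.

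RNA of spore-bearing structures differed between the groups as well. The summed FPKM of 9 conidiation markers (brlA, abaA, wetA, rodA, dewA, yA, wA, ivoA and ivoB) was 1316 to 1642 in AbfA, 135 to 2684 in BglC and 811 to 1716 in 1542 at 2 h, against 1491 to 4151 in A773. At 8 h it was 1970 to 3788 in AbfA, 85.6 to 1516 in BglC and 592 to 796 in 1542, against 239 to 272 in A773. None of the 9 markers was at 0 in any library. Of the 9, at 2 h 0 were called higher and 1 lower in AbfA, 0 higher and 1 lower in BglC, and 0 higher and 4 lower in 1542, while at 8 h 6 were called higher and 0 lower in AbfA, 1 higher and 0 lower in BglC, and 1 higher and 0 lower in 1542. Beside the shares of all genes called lower at 2 h (13.5% in AbfA, 15.7% in BglC and 16.1% in 1542) and higher at 8 h (11.3%, 7.09% and 5.42%), counts of 1 of 9 are near the background. In AbfA the heat shock genes called at 8 h were higher beside a marker sum above that of A773, while at 2 h they were higher beside a sum that overlapped with it. In 1542 at 8 h the sum also lay above that of A773, and of the 5 heat shock genes only hsp104 was called. In BglC at 8 h the sum overlapped with that of A773, and all 5 were called. RodA alone gave 2896 of the 4151 FPKM in replicate 3 of A773 at 2 h, but 24.5 of the 135 FPKM in replicate 2 of BglC at 2 h.

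Within BglC at 2 h the library with the highest marker sum, replicate 1 (2684), had the lowest hsp30 (7028 FPKM), and replicate 2, with the lowest sum (135), had the highest hsp30 (13615 FPKM). The library with the lowest sum had the highest hsp30 of its group in 5 of the 8 groups, BglC and 1542 at both times and A773 at 8 h. It had the lowest hsp30 of its group in the other 3, AbfA at both times and A773 at 2 h. The part of the marker RNA in these results was not tested.

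At 2 h the level of the introduced gene had no common order with hsp30 across the strains. In AbfA at 2 h the introduced gene had 6255, 3638 and 2689 FPKM in replicates 1, 2 and 3, the same order as hsp30. In BglC at 2 h it had 5805, 7704 and 8198 FPKM, and the highest of these values was not in the library with the highest hsp30. In 1542 at 2 h it had 1007, 695 and 1037 FPKM, and the lowest of these values was in the library with the highest hsp30. The 1542 strain had the lowest introduced-gene RNA of the recombinant strains, and its hsp30 difference at 2 h (1.68) lay between those of BglC (1.45) and AbfA (2.01). With 3 strains and 3 libraries a group this was not tested.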

How the data were processed

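RNA from frozen mycelium (integrity number of at least 8) was made into Illumina TruSeq stranded mRNA libraries, per the labels' protocols. The authors deposited 1 table of FPKM values with 1 column for each of the 24 libraries, whose names match the sample titles. Tools listed in the submitters' processing notes are DESeq2, HTSeq 0.6.0, SAMtools 0.1.18, bcl2fastq 1.8.4 and FastQC, without their roles. Not given in the sources used here are the aligner, genome build, annotation and strand setting, so reads of overlapping genes or of near-identical chaperone genes may not be separated.

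FPKM values were used as deposited, as log2(FPKM + 1), for the 9201 genes with at least 1 FPKM in at least 3 libraries. Limma 3.58.1 (R 4.3.3, with a variance trend) fitted 8 group means over 24 libraries. It tested 19 comparisons, 2-sided, with Benjamini-Hochberg adjustment over all genes of a comparison and a threshold of 0.05. FPKM values understate changes of low genes on this scale, which matters little at the levels of the 5 genes. Every library's values of the 5 genes are whole multiples of a step, from which whole reads were recovered for all 10631 genes (tolerance 0.02). This gave the depths, reads for a limma-voom alternative, and gene lengths, of which 9160 of 9235 were multiples of 3 (coding lengths). One read in 1 kb was worth 0.0309 to 0.1401 FPKM. The fit was tested on simulated data with known changes, in which the noise was independent between genes. In the real libraries the 5 genes varied together, and the simulation does not cover that.

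The named genes are the 5 chaperone genes, the listed related genes by symbol, and the 3 genes most correlated with each. The members, lists and tests were chosen with earlier results of these data known. Alternatives were a pseudocount of 0.1 or 5, no filter or a filter at 5 FPKM, median-of-ratios scaling, only the groups compared in the fit, no variance trend, voom, the replicate number as a block, and each library left out in turn. The correlation of the deviations of same-numbered libraries was over 0.1 in all 3 pairs in BglC at 8 h and 2 h (0.589, 0.154 and 0.327), which was taken as pairing, and in fewer than 3 pairs in every other comparison of 2 groups. A blocked fit of those 6 libraries, chosen after seeing the data, called 0 of the 5 genes. No sequences, coordinates or genome were used here.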

Additional observations from a re-analysis of the deposited data

How the results depend on the processing

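Of 1520 values of the 5 genes under alternatives, 1449 kept their side of the threshold, 64 lost a call, 7 gained one, and no called value changed sign. Of the 1449, 39 changed sign, all of them values called under neither setting. With only the groups compared in the fit, 3 of the 5 genes were called in BglC against A773 at 2 h, 0 in 1542 against A773 at 8 h, 1 in AbfA at 8 h against 2 h, and 0 in 1542 against BglC at 8 h. With no filter, 0 were called in 1542 against A773 at 8 h and 0 in BglC against AbfA at 8 h. With a filter at 5 FPKM, 1 was called in AbfA at 8 h against 2 h. With voom, 2 were called in 1542 against A773 at 8 h and 0 in BglC against AbfA at 8 h, and without the variance trend 0 were called in the last. The cause of these changes was not tested.

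The replicate numbers carry no stated batch. With the replicate block, 0 of the 5 genes were called in 1542 against A773 at 8 h and 0 in BglC against AbfA at 8 h; over all genes the block gave 2823 called instead of 2939 in AbfA against A773 at 2 h. Apart from the calls named in the report as ended with the block, it changed no call of the 5 genes.

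Leaving out 1 library at a time, the number of the 5 genes called ran from 4 to 5 in AbfA, 4 to 5 in BglC and 3 to 5 in 1542 against A773 at 2 h, and from 2 to 4, 1 to 5 and 0 to 2 in the same strains at 8 h. It ran from 0 to 1 in BglC and in 1542 for 8 h against 2 h, and from 0 to 1 in BglC against AbfA and 1542 against BglC at both times, and stayed at 0 in AbfA and A773 over time, in 1542 against AbfA and in the 3 changes between times.

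Counts over all genes fell with only the groups compared in the fit: to 1319 from 2939 in AbfA and to 637 from 2135 in BglC against A773 at 2 h, to 868 from 1755 in AbfA and to 1778 from 2974 in BglC over time, to 1942 from 4040 in BglC against AbfA at 2 h, and to 26 from 271 in 1542 against AbfA at 2 h, while 1542 against AbfA at 8 h gave 981 instead of 627. Leaving out 1 library gave as few as 1747 in AbfA and 976 in BglC at 2 h, and 1363, 1558 and 957 in AbfA, BglC and 1542 at 8 h, all against A773. With 3 libraries a group, the p-values rest on the spread within groups, pooled over all 24 libraries in the main fit. They cover no variation beyond these replicates. Depth was not the limit for the 5 genes.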
